A study of Mus musculus with 13 samples.

Results

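Shell-like claustrum neurons are described here as the 434 cells, of 1011 excitatory neurons kept from 1112 harvested cells, whose score for a set of shell genes was higher than their scores for core and deep-layer genes. The cells were picked by hand from the microdissected claustrum of 4 mature male wild-type C57BL/6 mice, and their RNA was sequenced cell by cell in 13 plates. In 1 mouse, called here the blindly sampled mouse, the retrograde virus rAAV2-retro-CAG-GFP injected into the anterior cingulate cortex was used to find the claustrum, and cells were then picked without regard to GFP. In projection mice 1 to 3, fluorescent retrobeads injected into the lateral entorhinal cortex (LEC) and the retrosplenial cortex (RSC) guided the dissection, and cells were picked as LEC-labelled, RSC-labelled or unlabelled. The exact ages of the mice are not given in the sources used here, and a cell without beads may still project to either area.

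Members were selected on measured values. Every cell with at least 1 count of Snap25, a gene of all neurons, and of Slc17a7, the vesicular glutamate transporter of most cortical excitatory neurons, was kept. Levels were expressed as log2(CPM + 1), where CPM is the counts of a gene scaled to the same total in every cell, and standardised for each gene over the kept cells. The shell score was the mean of Slc30a3, Col6a1, Mpped1 and Spon1. The core score was the mean of Synpr, Gnb4, Lxn, Gfra1 and Cpne4, and the deep score that of Sla, Foxp2, Rprm, Syt6 and Tle4. Cells were named shell-like (434), core-like (439) or deep-like (138) after the highest score. The study picked several of these genes on the same cells, so the rule is not independent of its findings.

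The claustrum is a thin sheet of neurons between the insular cortex and the striatum that exchanges connections with much of the cortex. From in situ data in the mouse, the study describes a central core and a surrounding shell, while the boundaries of the claustrum are debated. Deep cortical layer 6 lies next to the claustrum. Excitatory neurons there use glutamate, and some also load zinc into their synaptic vesicles through the transporter encoded by Slc30a3.

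Shell-like cells made up 42.9% of the kept cells (exact 95% interval, 39.9 to 46.0). They numbered 87 of 238 cells in the blindly sampled mouse, and 91 of 224, 103 of 220 and 153 of 329 cells in projection mice 1, 2 and 3. Each of the 4 mice thus contributed shell-like cells. The share in the projection mice follows in part from how many labelled cells were picked, as given further on. Intervals on cells cover counting error only.

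The 4 genes of the shell score differed in how well they set these cells apart, and their values are a description without a test. Sums of the counts of all shell-like cells of a mouse gave Slc30a3 levels of 353, 236, 349 and 279 CPM in the blindly sampled mouse and projection mice 1, 2 and 3, the order used for 4 values throughout. Slc30a3 had 19.9, 7.62, 38.1 and 15.1 CPM in core-like cells and 14.9, 61.1, 1.58 and 9.73 CPM in deep-like cells. The groups did not overlap, and shell-like cells were the highest in every mouse, which the rule favours because Slc30a3 is part of the shell score. Col6a1, a chain of collagen VI, lay between 150 and 373 CPM in shell-like, between 9.97 and 31.4 in core-like and between 39.2 and 135 in deep-like cells. Spon1, which encodes the secreted matrix protein F-spondin, lay between 154 and 301, 2.54 and 8.73, and 61.9 and 268 CPM in the same order of classes. Mpped1, a predicted metallophosphoesterase of the brain, did not separate shell-like from deep-like cells, with 246, 377, 399 and 344 CPM in the former and 372, 334, 462 and 383 CPM in the latter. It was at most 15 CPM in core-like cells. In cells thinned to 20000 counts each, Slc30a3 was detected in 78.4% of shell-like, 5.65% of core-like and 4.96% of deep-like cells.

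**Figure D1:**
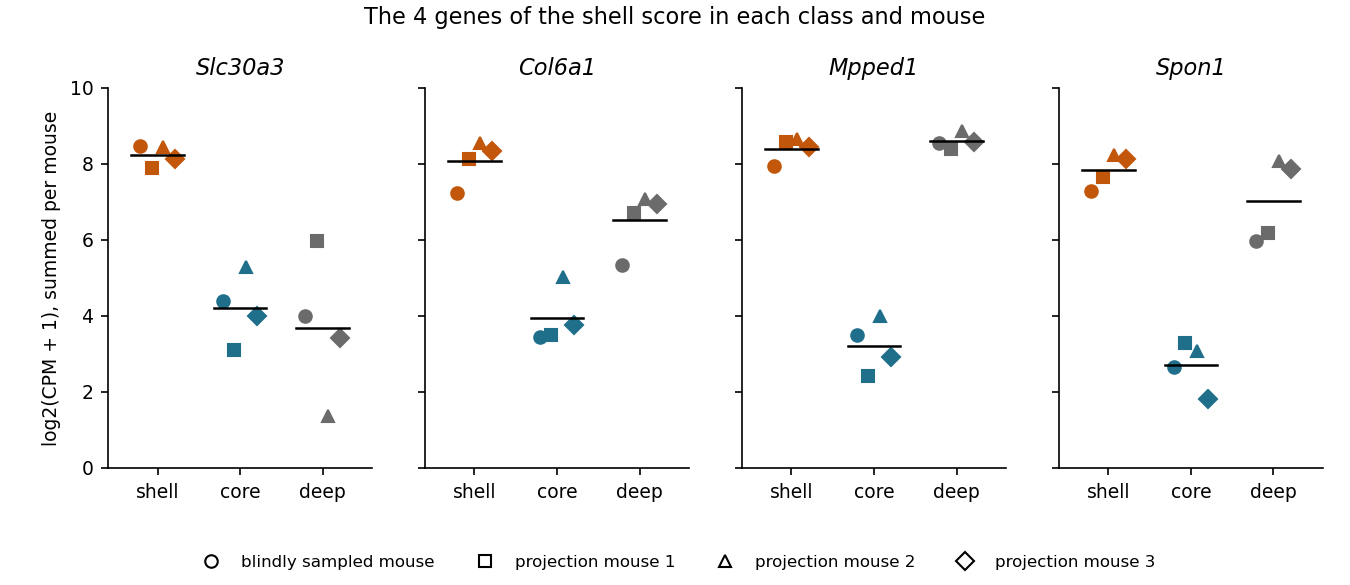
Level of the 4 genes that make up the shell score, as log2(CPM + 1) of counts summed per mouse, for shell-like, core-like and deep-like cells; each symbol is 1 mouse and each horizontal line the mean of the 4 log values. Slc30a3 is highest in the shell-like class in every mouse, which the rule favours, whereas Mpped1 reaches similar levels in shell-like and deep-like cells.

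All 4 shell genes had a count in 288 shell-like cells, 3 of them in 116, 2 in 28 and 1 in 2 cells. The margin of the shell score over the next score had a median of 1.13 standard deviations, ranging from 0.00935 to 1.70, and was below 0.5 in 56 cells. For 382 cells the next score was the deep score and for 52 the core score. The median deep score of shell-like cells was -0.326 in each mouse, the value of a cell with no count of any deep gene. The median core score was lower, at -0.724 over all shell-like cells. A next score that was deep therefore does not show a likeness to deep-like cells. The cells nearest to the limit had margins of 0.00935, 0.0212 and 0.0223 inside it and -0.00897, -0.0212 and -0.0223 outside it. Leaving any 1 of the 4 genes out of the score gave between 423 and 440 shell-like cells.

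Sums of counts per mouse were then compared between shell-like cells and all other kept cells, with the 14 score genes and the 2 filter genes left out. The 8 sums held 2632724 to 30541685 counts. The test was edgeR's quasi-likelihood F test with the mouse as a block and a Benjamini-Hochberg adjusted p of 0.05 as the threshold, and log2 fold changes are those it fitted, with their standard error (SE). Of 14996 genes tested, 1461 (9.74%) passed, 640 higher (4.27%) and 821 lower (5.47%) in shell-like cells. The median log2 fold change over all genes was -0.02. Because the classes were cut from the same counts, any gene that varies together with a score gene from cell to cell was bound to differ between them. The other cells were mostly core-like (439 of 577), and so this comparison leans towards the core. Without projection mouse 2 or 3 the count fell to 919 or 802 genes, and with unlabelled cells only (180 shell-like and 298 others) it was 468 genes.

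The 11 genes with the largest rise were each found in a minority of shell-like cells. Accn4, the older symbol for a member of the acid-sensing ion channel family, had 9.81, 6.95, 17.8 and 10.3 CPM in shell-like cells and at most 0.149 CPM in core-like cells, and no count in deep-like cells. Its log2 fold change against all other cells was 7.93 (SE 0.63, adjusted p = 0.000218, edgeR). Chrdl1, a secreted antagonist of bone morphogenetic proteins, had 1.57, 0.869, 30.4 and 15.2 CPM in shell-like cells. Its level was thus high in projection mice 2 and 3 and low in the other two, but above the other cells in all 4 (log2 fold change 7.53, SE 0.61, adjusted p = 0.000241, edgeR). Set against a floor of 3 counts in the deep-like sum, pooled shell-like cells were 56.3-fold higher for Accn4 and 75.4-fold for Chrdl1. The floor treats counts as independent, whereas those of Chrdl1 came from 47 cells and those of Accn4 from 175. These folds are therefore no lower bounds.

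Dcn, the proteoglycan decorin, had 3.53, 102, 22.6 and 30.9 CPM in shell-like cells and at most 0.224 CPM in core-like cells. Projection mouse 1 stood highest for Dcn and the blindly sampled mouse lowest, and the log2 fold change was 6.50 (SE 0.50, adjusted p = 0.00019, edgeR). Col5a2, a chain of collagen V, had 11.8, 31.1, 36.2 and 47.2 CPM and a log2 fold change of 5.54 (SE 0.61). Igfn1, a protein with immunoglobulin and fibronectin domains known from muscle, had 5.49, 7.82, 18.7 and 22.3 CPM and a log2 fold change of 7.09 (SE 0.47). Sema3c, a secreted semaphorin that guides axons, had 11.4, 29.2, 40.5 and 50.5 CPM and a log2 fold change of 4.29 (SE 0.66). The remaining genes of the 11 largest rises were Ptprz1, a receptor tyrosine phosphatase, Aspg, Abca8a, an ABC transporter, the HMG-box factor Tox3 and Dmkn, with log2 fold changes up to 5.31. Tox3 lost its call when the blindly sampled mouse was left out, and likewise for projection mice 2 and 3 (largest adjusted p = 0.0967, edgeR). In unlabelled cells only, Sema3c (adjusted p = 0.115), Abca8a (0.0621) and Tox3 (0.145) did not pass in edgeR.

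These 11 genes were unevenly spread over the shell-like cells. When every cell was thinned to 20000 counts, Sema3c was detected in 27.6% of 399 shell-like cells, Accn4 in 18.8% and Chrdl1 in 8.77%. At least 2 of the 11 genes were detected in 179 of these cells, 1 in 101 and none in 119, against 494 of 528 other cells with none. The genes were picked for their rise over these same other cells, so the contrast with them was built in. The share of shell-like cells with none ran from 23.5% in projection mouse 3 to 53.4% in the blindly sampled mouse. Dcn and Chrdl1 were seen together in 1 thinned cell, among 65 cells with Dcn and 35 with Chrdl1. Sema3c was found in 47.7% of the cells with Dcn and in 23.7% of those without it, and Accn4 in 37.1% of the cells with Chrdl1 and 17% of those without it. These pairs were picked after their values were seen and are given without a test, and the mice differ in both genes.

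**Figure D2:**
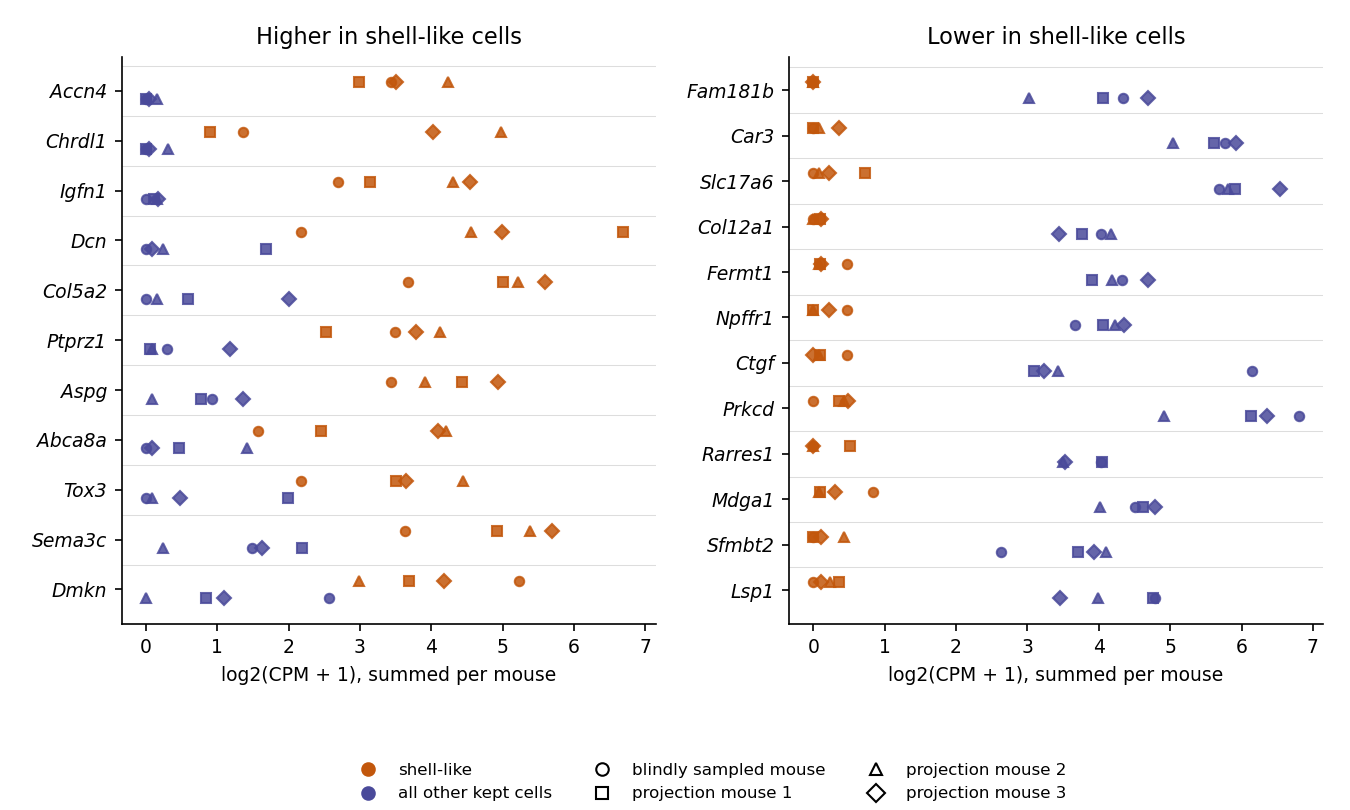
Levels of the 11 genes with the largest rise (left) and the 12 with the largest fall (right) in shell-like cells, as log2(CPM + 1) of counts summed per mouse, with 1 symbol per mouse for shell-like cells and for all other kept cells. Genes on the right lie below 1 in shell-like cells of all 4 mice, whereas those on the left vary more between mice.

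The largest falls were of genes close to absent from shell-like cells. Fam181b had no count in any of the 434 cells, against 26.8, 21.7, 8.87 and 28.1 CPM in core-like cells. Pooled core-like cells were 413-fold above a floor of 3 counts. That is no lower bound, since their 1340 counts came from 133 cells. Car3, a carbonic anhydrase, had 0, 0, 0.0590 and 0.281 CPM in shell-like and 73.5, 66.6, 39.6 and 67.1 CPM in core-like cells. Slc17a6, the second vesicular glutamate transporter, had 0, 0.652, 0.0590 and 0.160 CPM in shell-like cells, 69.8, 78.8, 63.7 and 102 CPM in core-like cells and 0, 7.78, 20.3 and 10.3 CPM in deep-like cells. Shell-like cells thus held Slc17a7, by which they were kept, and close to no Slc17a6 (log2 fold change against all others -8.12, SE 0.45, adjusted p = 4.09e-05, edgeR). Prkcd, protein kinase C delta, had at most 0.401 CPM in shell-like cells and between 36.1 and 152 CPM in core-like cells. Mdga1, a membrane-anchored adhesion protein, was at most 0.785 CPM in shell-like cells and between 5.45 and 30.7 CPM in both other classes. Fermt1, Npffr1, Rarres1 and Sfmbt2 fell in the same way against core-like cells, while Col12a1, Ctgf and Lsp1 were highest in deep-like cells. All 12 falls passed without each single mouse, and Npffr1, a neuropeptide FF receptor, did not pass in unlabelled cells only (adjusted p = 0.240, edgeR).

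A fit with all 3 classes as separate sums asked from which class each gene differed. Against core-like cells, 1051 of 14571 genes passed (7.21%), 528 higher (3.62%) and 523 lower (3.59%) in shell-like cells. Against deep-like cells, 636 passed (4.36%), 344 higher (2.36%) and 292 lower (2%). Both comparisons share the shell-like sums, so their calls are not independent. The first count lay between 511 and 791 when single mice were left out and the second between 221 and 501, the lowest each time without projection mouse 3. Deep-like cells were the fewest, with 23 to 48 per mouse.

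Against core-like cells, the largest rises after Ptprz1, Dcn, Igfn1 and Accn4 were Crym and Ramp3. Crym, the thyroid hormone-binding protein mu-crystallin, had 45.5, 134, 150 and 112 CPM in shell-like cells and 1.25, 0.873, 1.12 and 0.184 CPM in core-like cells. It had 58.8, 461, 604 and 521 CPM in deep-like cells, which were the highest in each mouse. Its log2 fold change was 7.61 against core-like cells (SE 0.50, adjusted p = 1.05e-05, edgeR) and -1.71 against deep-like cells (SE 0.33, adjusted p = 0.0137, edgeR), the latter call being lost without projection mouse 1, 2 or 3 (largest adjusted p = 0.0765, edgeR). Ramp3, a receptor activity-modifying protein, had 24.7, 76.2, 42.1 and 71.0 CPM in shell-like cells, at most 0.935 CPM in core-like cells and at least 80.8 CPM in deep-like cells. Crym and Ramp3 therefore graded from core-like through shell-like to deep-like cells, and neither passed against all other cells (adjusted p = 0.0799 and 0.182, edgeR).

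Of the 5 in situ genes of the study outside the scores, Nnat rose against all other cells, Slc17a6 and Ctgf fell and Pcp4 and Cdh9 did not pass. Nnat, an imprinted gene encoding the membrane proteolipid neuronatin, had 391, 714, 1016 and 1303 CPM in shell-like cells, 26.2, 19.6, 110 and 53.8 CPM in core-like cells and 96.4, 261, 924 and 1067 CPM in deep-like cells. Shell-like cells were the highest in all 4 mice, with core-like cells lowest. The log2 fold change was 4.26 against core-like cells (SE 0.38, adjusted p = 5.26e-05, edgeR) and 0.92 against deep-like cells (SE 0.33, adjusted p = 0.159, edgeR). Pcp4, a calmodulin regulator abundant in deep cortical layers, had 395, 389, 327 and 271 CPM in shell-like cells, at most 75.7 CPM in core-like cells and at least 1124 CPM in deep-like cells. It passed upwards against core-like (log2 fold change 4.47, SE 0.48) and downwards against deep-like cells (-2.12, SE 0.42), the second call being lost without projection mouse 2 (adjusted p = 0.0748, edgeR). Pcp4 was detected in 82% of thinned shell-like cells. Cdh9, a cadherin, was level with core-like cells (log2 fold change -0.04, SE 0.30) and 2.52 higher than deep-like cells on the log2 scale (SE 0.34, adjusted p = 0.00157, edgeR). Ctgf, a matricellular protein that marks layer 6b, lay at or below 0.392 CPM in shell-like cells.

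Against deep-like cells, Chrdl1, Accn4, S100a3, Osr1, Adam33 and Arhgap6 rose most. In cells thinned to 20000 counts, S100a3, Adam33 and Arhgap6 lost this call (adjusted p = 0.247, 0.404 and 0.338, edgeR). Osr1, a zinc finger transcription factor, had 51.8, 50.5, 105 and 76.4 CPM in shell-like cells and 1.57, 0.467, 0.316 and 1.72 CPM in deep-like cells, with no overlap (log2 fold change 6.28, SE 0.44, adjusted p = 5.45e-05, edgeR). Its difference from core-like cells, 1.03 on the log2 scale (SE 0.29), did not pass (adjusted p = 0.0596, edgeR). Adam33 lost its call without each single mouse in turn (largest adjusted p = 0.173, edgeR). The largest falls were of Col12a1, Ctgf, Krt80, Lsp1, Nxph4 and Col5a1. Lsp1, an actin-binding protein, had 92.5, 96.8, 77.8 and 86.5 CPM in deep-like cells and at most 0.290 CPM in shell-like cells (log2 fold change -9.00, SE 0.41, adjusted p = 1.16e-06, edgeR). Nxph4, a neurexophilin of layer 6b, had 77.6, 2.33, 12 and 1.72 CPM in deep-like cells and lost its call without the blindly sampled mouse (adjusted p = 0.0716, edgeR).

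The genes with the largest rise against both other classes, ranked by the smaller of both changes, were Accn4, Chrdl1, Col5a2, Igfn1, Dcn, Gpc4, Otof and Chst8. Gpc4, a glypican of the cell surface, had 17.3, 28.9, 27.9 and 16.8 CPM in shell-like cells, at most 3.95 CPM in core-like cells and at most 5.76 CPM in deep-like cells. Chst8, a sulfotransferase, had 25.1, 16.3, 14.1 and 13.5 CPM in shell-like cells and at most 6.53 CPM in either other class. Otof, otoferlin, which acts in vesicle release in hair cells, had 3.14, 12.3, 11 and 28.5 CPM. Gpc4, Otof and Chst8 passed narrowly, with adjusted p in edgeR between 0.0277 and 0.0416, and each lost both calls when some single mice were left out (largest adjusted p = 0.252, for Otof against core-like cells without projection mouse 3). Against deep-like cells Igfn1, Dcn and Col5a2 also lost their calls without the blindly sampled mouse and without projection mouse 3 or, for Col5a2, projection mouse 2 (largest adjusted p = 0.0741, edgeR). In cells thinned to 20000 counts, Igfn1 lost this call too, with a log2 fold change of 1.77 (adjusted p = 0.255, edgeR). Chrdl1 was not among the genes tested against either class without projection mouse 2, without projection mouse 3 or without the mouse as a block. Its rise against both classes was thus not examined without either mouse in which its level was high.

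**Figure D3:**
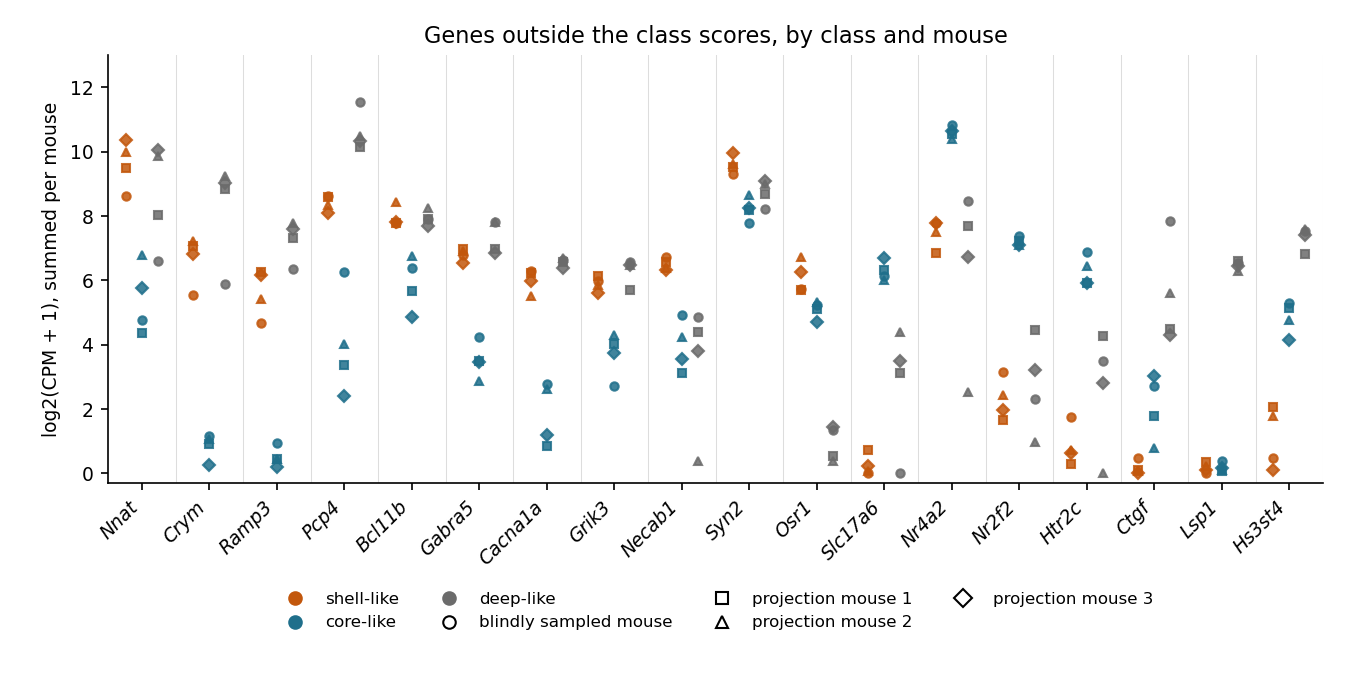
Levels of 18 genes outside the class scores, as log2(CPM + 1) of counts summed per mouse and class, with 1 symbol per mouse. Crym, Ramp3, Pcp4, Bcl11b, Gabra5, Cacna1a and Grik3 lie closer to deep-like than to core-like levels in shell-like cells, whereas Slc17a6, Nr4a2, Nr2f2 and Htr2c are highest in core-like and Ctgf, Lsp1 and Hs3st4 in deep-like cells.

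Gene groups were read against the share of all genes that passed. It was 9.74% against all other cells, 7.21% against core-like and 4.36% against deep-like cells. Some genes named below lost their call against all other cells when unlabelled cells alone were used. These were Tbr1, Mt2, Gria4, Gabra5, Kcnc4, Cacna1a, Grik3, Grm3, Grp, Drd2, Npy2r, Cdh8, Homer1, Aldoc, Mobp and Itm2a (adjusted p from 0.0717 to 0.958, edgeR). Without the mouse as a block, the calls of Zfpm2, Gria4, Grp, Arc, Aldoc, Mobp and Mbp against all other cells were lost (adjusted p from 0.0656 to 0.355, edgeR). Lost as well in edgeR were those of Npy against core-like cells (adjusted p = 0.192) and of Fezf2 (0.0555) and Syn2 (0.0651) against deep-like cells. Of 8 claustrum markers outside the scores, 7 fell and none rose, with a median log2 fold change of -2.81. Nr4a2, a nuclear receptor long used to mark the claustrum, had 220, 114, 180 and 221 CPM in shell-like cells against 1826, 1504, 1351 and 1591 CPM in core-like cells (log2 fold change against all others -2.83, SE 0.12). The nuclear receptor Nr2f2 (-5.00, SE 0.27), the copine Cpne9 (-3.59, SE 0.51) and Car3 fell as well. None of the 8 markers passed against deep-like cells, where their log2 fold changes ran from -1.51 to 1.63 with a median of 0.12. Since only 4.36% of all genes passed there, a count of 0 among 8 does not show that the levels are alike. Nr4a2 was 0.48 higher than in deep-like cells on the log2 scale (SE 0.64).

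Layer 6b and subplate genes were read in the same way, with 4 of 7 lower and none higher than in all other cells. Hs3st4, a sulfotransferase of layer 6 cells, had 0.392, 3.19, 2.42 and 0.0802 CPM in shell-like cells against 183, 113, 192 and 170 CPM in deep-like cells. Of 8 layer 6a genes, Hs3st4, Zfpm2 and Tbr1 fell and Bcl11b rose against all other cells. Tbr1, a T-box factor of deep layers, lay between 54.4 and 72.1 CPM and fell by 0.82 on the log2 scale (SE 0.14), and without the blindly sampled mouse Tbr1 and Zfpm2 no longer passed (adjusted p = 0.0545 and 0.0553, edgeR). Bcl11b, the factor CTIP2 of subcortically projecting neurons, had 221, 219, 344 and 224 CPM in shell-like cells and 238, 238, 305 and 207 CPM in deep-like cells. Their log2 difference was 0.02 (SE 0.21), while core-like cells had 82.0, 50.4, 106 and 28.2 CPM. Against core-like cells 4 of the 8 layer 6a genes rose (Crym, Fezf2, Pcp4 and Bcl11b) and 3 fell (Hs3st4, Zfpm2 and Tbr1), of which Zfpm2 and Tbr1 lost their calls when some single mice were left out (largest adjusted p = 0.167, edgeR), and against deep-like cells 6 fell and none rose. Fezf2, a zinc finger factor of deep-layer neurons named after its values were seen, had 4.32, 24.5, 21.1 and 21.5 CPM in shell-like cells, at most 1.25 CPM in core-like cells and at least 43.1 CPM in deep-like cells. Its fall against deep-like cells was lost without projection mouse 2 or 3 (largest adjusted p = 0.148, edgeR). Of 11 intratelencephalic and upper-layer genes none rose and 3 fell against all others. Cux1, an upper-layer homeobox factor, was among them, with 3.19 to 10.6 CPM in shell-like and 69.7 to 116 CPM in core-like cells. Against core-like cells 1 of the 11 genes rose and 1 fell, and against deep-like cells 3 rose and 2 fell.

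Of 26 zinc transporters and metallothioneins other than Slc30a3, tested against all other cells, none rose and 4 fell, with a median log2 fold change of -0.13. Metallothioneins bind zinc in the cytosol. Mt1 had 72.2, 147, 194 and 181 CPM in shell-like and 188, 269, 302 and 354 CPM in core-like cells (log2 fold change against all others -0.74, SE 0.10, adjusted p = 0.00293, edgeR), a call that was lost without the mouse as a block (adjusted p = 0.252, edgeR). Mt2 fell by 2.18 on the log2 scale (SE 0.47) and lost its call without projection mouse 3 (adjusted p = 0.0998, edgeR). Against deep-like cells, where 4.36% of all genes passed, none of 25 did, with 0.52 higher Mt1 (SE 0.16, adjusted p = 0.107, edgeR).

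Receptors for transmitters moved in both directions. Of 22 glutamate receptor genes, 5 rose and 3 fell against all others. Grik3, a kainate receptor subunit, had 62.8, 69.9, 57.1 and 47.3 CPM in shell-like and 5.61, 15.2, 18.8 and 12.3 CPM in core-like cells (log2 fold change against core-like cells 2.17, SE 0.31, adjusted p = 0.00129, edgeR). Grm3, a metabotropic receptor, was also higher than in core-like cells (1.92, SE 0.18) but passed as lower than in deep-like cells (adjusted p = 0.0404, edgeR). Its second call was lost after thinning and without the blindly sampled mouse or projection mouse 2 or 3 (largest adjusted p = 0.264, edgeR). Gria4, an AMPA receptor subunit, was lower than in core-like cells (-1.07, SE 0.26). Gria4 lost that call when the blindly sampled mouse was left out, and likewise for projection mice 1 and 3 (largest adjusted p = 0.141, edgeR). Gabra5, a GABA-A receptor subunit of extrasynaptic receptors, had 109, 126, 118 and 92.8 CPM in shell-like cells, between 6.26 and 18.1 CPM in core-like cells and between 115 and 223 CPM in deep-like cells. It rose by 3.40 on the log2 scale against core-like cells (SE 0.28), and its difference from deep-like cells, -0.56 (SE 0.25), did not pass. Of 39 receptors for monoamines, acetylcholine and peptides, 6 rose and 7 fell. The serotonin receptor Htr2c was among the falls, with 2.35, 0.217, 0.649 and 0.561 CPM in shell-like cells against 118, 59.5, 86.3 and 59.0 CPM in core-like cells (log2 fold change against all others -6.58, SE 0.31). The peptide receptor Npy2r (3.53, 14.9, 11.8 and 31.9 CPM) and the dopamine receptor Drd2 (1.96, 4.56, 4.90 and 8.46 CPM) rose by 3.23 (SE 0.39) and 3.25 (SE 0.63), and Drd2 did not pass without projection mouse 3 (adjusted p = 0.0984, edgeR).

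Ion channels, too, were split. Of 47 potassium channel genes 5 rose and 4 fell, and of 28 sodium, calcium and HCN channel genes 3 rose and 3 fell. Kcnc1, a fast delayed rectifier, had 75.4, 74.0, 61.3 and 56.0 CPM in shell-like and 244, 223, 187 and 188 CPM in core-like cells, whereas its relative Kcnc4 had 67.9, 97.9, 88 and 91.4 CPM against 24, 16.1, 21.2 and 16.5 CPM. The pair thus moved in opposite directions, by -1.66 (SE 0.13) and 2.20 (SE 0.23) on the log2 scale against core-like cells. Kcnv1, a silent modifier subunit, fell by 2.18 against core-like cells (SE 0.16). Cacna1a, the pore of P/Q-type calcium channels, had 78.1, 74.6, 44.7 and 62.7 CPM in shell-like cells and at most 5.92 CPM in core-like cells (log2 fold change 4.62, SE 0.49). Deep-like cells had 82.2 to 103 CPM of it.

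Among 45 genes of synaptic vesicles and release, 6 rose and 5 fell against all others. Syn2, the vesicle protein synapsin II, had 626, 737, 779 and 996 CPM in shell-like cells, 221, 291, 399 and 307 CPM in core-like cells and 296, 415, 509 and 548 CPM in deep-like cells. Within each mouse the shell-like cells were the highest, with log2 fold changes of 1.38 (SE 0.11) and 0.85 (SE 0.11). Rph3a, rabphilin, was lower than in deep-like cells by -2.12 on the log2 scale (SE 0.22). Of 28 calcium-binding and calmodulin-regulating genes 6 rose and 9 fell. Necab1, a neuronal calcium-binding protein, had 104, 93.4, 82.8 and 79.3 CPM in shell-like cells, and at most 29.3 CPM in either other class. It rose by 2.59 against all other cells (SE 0.21, adjusted p = 0.000235, edgeR), and its relative Necab2 by 3.14 (SE 0.33).

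Adhesion and guidance genes also moved both ways, with 3 of 36 cadherins, contactins and IgLON proteins higher and 6 lower, and 9 of 51 guidance genes higher and 9 lower. Sema3e, a secreted semaphorin, had 34.9, 46.7, 63.0 and 58.2 CPM in shell-like cells and rose by 2.83 against all others (SE 0.25). Sema5a fell by 2.71 (SE 0.22), and Cdh8 by 2.31 (SE 0.26). In the extracellular matrix list 4 of 32 rose and 5 fell. Col11a1 had 10.2, 3.76, 3.78 and 3.29 CPM in shell-like and 196, 212, 164 and 192 CPM in core-like cells, and Col12a1 no more than 0.0802 CPM in shell-like cells. The neuropeptides Cartpt, Tac2 and Nmb fell (2 of 14 rose and 4 fell), and Grp, gastrin-releasing peptide, had 4.71, 29.7, 18.9 and 16.5 CPM and lost its rise when the blindly sampled mouse was left out, and likewise for projection mice 2 and 3 (largest adjusted p = 0.121, edgeR). Npy, named after its values were seen, had 190, 738, 469 and 1060 CPM in shell-like cells and 0.312, 11.5, 18.3 and 111 CPM in core-like cells. Its deep-like levels were scattered, at 0, 1129, 15.5 and 2828 CPM. In each class, the 3 cells with the most Npy held 98.9989% (deep-like), 83.6% (core-like) and 7.33% (shell-like) of its counts. The deep-like and core-like levels thus rested largely on a few cells. Npy was detected in 62.7% of thinned shell-like, 14.7% of core-like and 7.44% of deep-like cells. It passed against core-like cells (log2 fold change 5.15, SE 1.10, adjusted p = 0.0147, edgeR), though not without the blindly sampled mouse (adjusted p = 0.0616, edgeR).

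Of 18 immediate early genes, which neurons induce with activity and after dissociation, Arc, Homer1 and Bdnf fell and Jun rose. Bdnf, a neurotrophin, had 624, 441, 442 and 660 CPM in shell-like cells, between 1113 and 1942 CPM in core-like cells and between 79.2 and 211 CPM in deep-like cells, so that shell-like cells lay between the other classes in all mice. Jun had 116, 159, 194 and 329 CPM against 58.1 to 72.0 CPM in core-like cells (log2 fold change 1.55, SE 0.23). Handling of the cells before lysis was not measured, and its part in these values was not tested.

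Markers of other cell types were checked in the same sums. Of 8 inhibitory neuron genes tested none passed against all other cells. Gad1 had a count in 2 and Gad2 in 3 of 434 shell-like cells, and the summed level of the list, 190 to 1104 CPM, was almost all Npy. Of 11 oligodendrocyte genes Mbp and Mobp rose. Mbp had 54.9, 170, 150 and 77.5 CPM in shell-like cells and 12.3 to 106 CPM in core-like and deep-like cells. Counts of both genes were uneven, since 3 cells held 40.8% of those of Mbp and 3 cells 63.9% of those of Mobp. The part of myelin RNA in other calls was not tested. Of 5 astrocyte genes tested Aldoc and Sox9 rose and Slc1a2 fell, with the list at 89.7 to 199 CPM in shell-like and 150 to 855 CPM in the other classes, while Gfap had 1 count. Sox9 lost its call without the blindly sampled mouse or projection mouse 1 or 3, and Aldoc without projection mouse 1 (largest adjusted p = 0.101, edgeR). Of the microglial list P2ry12 was at 0 in shell-like cells, and none of 3 genes tested passed. In the vascular list, which summed to 547 to 647 CPM through the broadly expressed Bsg, Pecam1 and Vtn were at 0. Itm2a was the 1 of 3 tested that passed, with a log2 fold change of -0.89 (SE 0.16). Its mean was 65.9 CPM in shell-like, 156 in core-like and 15.5 in deep-like cells. Against deep-like cells Itm2a passed upwards (adjusted p = 0.0121, edgeR). That call was lost without the blindly sampled mouse or projection mouse 3 (largest adjusted p = 0.0865, edgeR).

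Shell-like cells held less RNA per spike-in than core-like cells. The median number of endogenous counts per count of ERCC, RNA added in equal amount to each cell, was 14.6, 10.6, 9.70 and 10.9 in shell-like cells and 17.3, 13.4, 12.2 and 15.2 in core-like cells. The shell-like median was the lower in 4 of 4 mice, by a mean of -0.34 on the log2 scale (SD 0.10, n = 4, exact sign-flip permutation test, two-sided p = 0.13, the smallest that 4 mice allow). Against all other cells the difference was -0.28 (SD 0.08, exact p = 0.13, n = 4), and -0.20 when taken within plates (SD 0.07, exact p = 0.13, n = 4), where shell-like cells were the lower in 9 of 12 plates. Deep-like cells had medians of 18.4, 10.8, 9.71 and 9.28, and the difference from them changed sign between mice (mean -0.03, SD 0.23, n = 4). At 20000 counts per cell, shell-like cells had medians of 4023, 3814.5, 3808.5 and 3733 genes, fewer than the core-like medians of 4078, 4039.5, 3963.5 and 3979 in every mouse (exact p = 0.13, n = 4). Fewer molecules per cell and less efficient capture cannot be told apart.

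**Figure D4:**
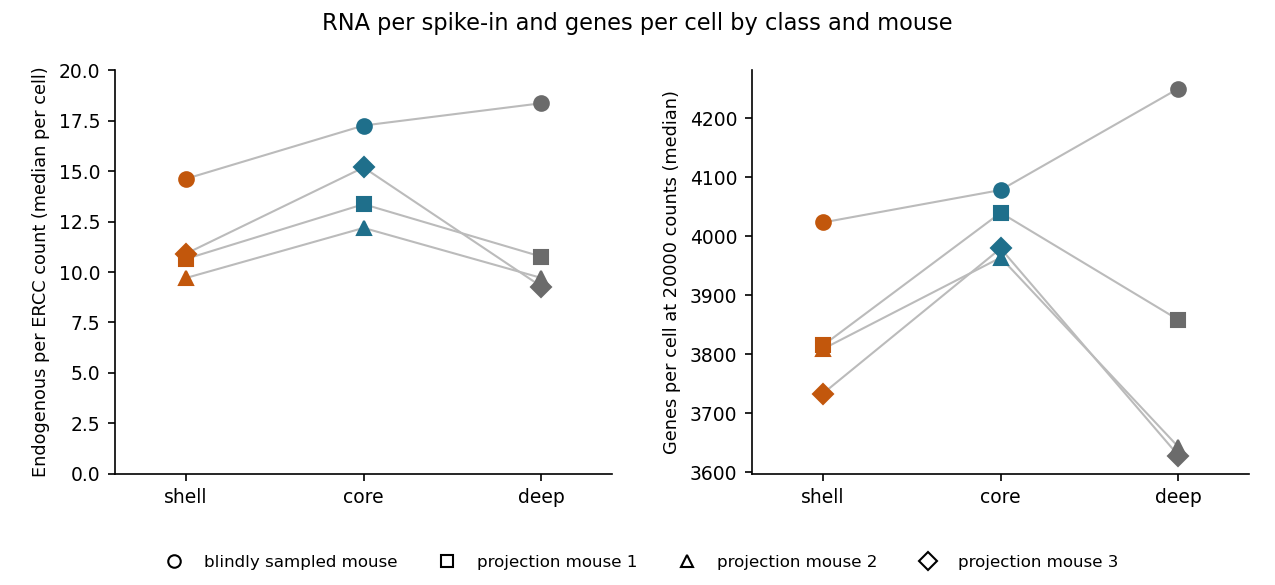
Median endogenous counts per ERCC spike-in count (left, axis from 0) and median genes detected in cells thinned to 20000 counts (right, axis not from 0) for the 3 classes; lines join the classes of 1 mouse. Shell-like medians are below core-like medians in all 4 mice, and deep-like medians vary.

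The projection label, which the rule did not use, went with membership. Of LEC-labelled cells, 59 of 80, 63 of 76 and 109 of 130 were shell-like in projection mice 1, 2 and 3, which is 73.8%, 82.9% and 83.8%. Of RSC-labelled cells, 8 of 64, 6 of 70 and 9 of 113 were shell-like (12.5%, 8.57% and 7.96%), and of unlabelled cells 24 of 80, 34 of 74 and 35 of 86 (30.0%, 45.9% and 40.7%). LEC-labelled cells were above unlabelled and these above RSC-labelled cells in each mouse. The share was 70.5 percentage points higher among LEC- than RSC-labelled cells (SD 8.04, n = 3 mice, exact permutation of the labels within mice, two-sided p = 0.25, the smallest that 3 mice allow). Labels were in different plates within each mouse, except in plate 12 of projection mouse 3, where 31 of 44 LEC-labelled (70.5%, exact 95% interval 54.8 to 83.2) and 5 of 34 RSC-labelled cells (14.7%, 4.95 to 31.1) were shell-like. In the blindly sampled mouse the share was 39.2%, 23.7% and 45.8% over its 3 plates.

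**Figure D5:**
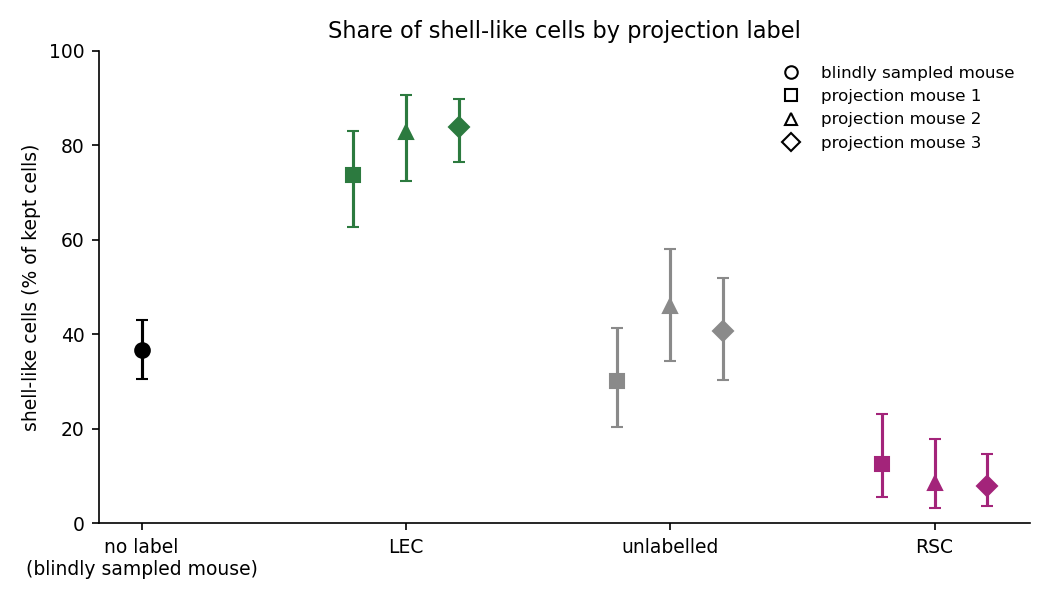
Percent of kept cells that were shell-like, by projection label and mouse, with the blindly sampled mouse (36.6%) at the left and exact 95% Clopper-Pearson intervals as bars. The 3 LEC values lie between 73.8 and 83.8%, the unlabelled between 30.0 and 45.9% and the RSC values between 7.96 and 12.5%.

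Within shell-like cells, 231 LEC-labelled, 93 unlabelled and 23 RSC-labelled cells of the 3 projection mice were compared. Of 12788 genes, 0 passed in edgeR between LEC-labelled and unlabelled cells (211 had an unadjusted p under 0.05), 0 between RSC-labelled and unlabelled cells (1152) and 0 between LEC- and RSC-labelled cells (1262), while DESeq2 called 54, 356 and 426. On simulated data for both LEC comparisons, edgeR missed most of the changes put in, and a larger share of the DESeq2 calls than of the edgeR calls was false. The RSC sums came from 6 to 9 cells and held 544985 to 1406950 counts, so a difference may go undetected with these sums and 3 mice, and label and plate cannot be told apart. In the blindly sampled mouse, 19 of 87 shell-like cells (21.8%, exact 95% interval 13.7 to 32) had a count of Gfp from the virus injected into the anterior cingulate cortex, against 48 of 113 core-like cells (42.5%, 33.2 to 52.1) and 3 of 38 deep-like cells (7.89%, 1.66 to 21.4), and after thinning to 20000 counts the shares were 12.1%, 36.0% and 3.70%, in a single mouse and with no test.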

How the data were processed

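Counts per gene and cell of 4 mice in 13 plates were analysed. The authors tagged reads to barcodes and molecular identifiers, aligned them to the mouse genome with STAR and deposited counts without normalization. The submitters' notes name the build NCBIM37 and Seurat. The counts were taken as reads, as the Methods give totals in reads. Mice were identified from deposited cell tables. One table, of the blindly sampled mouse, had 16786 genes and the other, of the projection mice, 23216, and a gene of 1 table was set to 0 in the other. The Methods place 3 plates on 1 flow cell and 10 on another with a different read length, and the blindly sampled mouse had 3 plates, so mouse and run may not be separable. Shell-like cells had median totals of 27253 counts in the former and 150260 to 152672 in the latter.

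Spike-ins were left out except where said. Counts were summed per mouse and class (at least 5 cells) and tested with edgeR 4.0.16 (TMM, filterByExpr, quasi-likelihood F test). The mouse was a block since both sums come from 1 animal: deviations of same-mouse sums correlated at 0.631, 0.243, 0.215 and 0.249. DESeq2 1.42.0 in R 4.3.3 and other alternatives are given at the end. The fits were tested on simulated data. Doublets were not called, as cells were picked singly. Adjusted p-values are over all genes tested.

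The members and lists were chosen with earlier results of these data known. Named genes were, with an adjusted p under 0.05, the same direction in 4 of 4 mice and a mean of at least 10 CPM in the higher group (clone and locus names left out), the 12 largest changes each way against all other cells, 6 each way against each class and 8 against both. They also include the shell and in situ genes and up to 4 members of each list. Coordinates and the anterior and posterior sections were not used here. Published tables of the authors' comparisons were not used. Some genes that this rule or a list names are not reported here.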

Additional observations from a re-analysis of the deposited data

Results flagged for a closer look

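In groups of 4 mice, a value was singled out when its gap to the nearest other value, over the range, passed Dixon's 95% limit. Chance gives this in about 1 of 20 groups of normally distributed values. Of 111 groups of shell-like values, 12 were singled out. The blindly sampled mouse, the shallowest, stood high for Ap3s1 (34.1 CPM), Col11a1 (10.2 CPM), Ephb1 (7.06 CPM), Pou3f2 (0.785 CPM) and Fermt1 (0.392 CPM). Projection mouse 2 stood high for Bcl11b (344 CPM against 219 to 224 in the others) and projection mouse 1 for Itm2a (83.3 CPM against 59.3 to 60.5). The other values lay near 0: Rarres1 (0.434 CPM) and Tac2 (0.724 CPM) in projection mouse 1, Krt80 and Nxph4 (0.0590 CPM each) in projection mouse 2 and Moxd1 (0.281 CPM) in projection mouse 3. For Rarres1, Krt80, Nxph4 and Moxd1 all other mice were at 0, so that any count would be singled out. The rate of 1 in 20 does not hold for such groups. Why these samples differ was not tested.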

How the results depend on the processing

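The count of genes that passed depended on the test and on the mice and cells used. DESeq2, with the same design, called 2251 genes against all other cells, 1677 against core-like and 1454 against deep-like cells. Without the mouse as a block (pairing ignored) the counts were 818, 706 and 406, and in unlabelled cells only 468, 589 and 455. Leaving out single mice gave 802 to 1035, 511 to 791 and 221 to 501 genes. Of 92 named genes that passed against all other cells, 69 of 90 tested kept their call without the block, 58 of 91 in unlabelled cells, 76 to 82 without single mice and 85 of 89 after thinning. Pcp4 against all other cells (0.06, not past the threshold) turned to -0.27 without the block, -0.046 after thinning and -1.26 in unlabelled cells, where it passed, and ranged from -0.20 to 0.46 without single mice (-0.02 without projection mouse 1), and Grm3 turned to -0.052 in unlabelled cells. The cause was not tested, but deep-like cells were 115 of 298 other cells there and 138 of 577 in all.

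Within shell-like cells, edgeR called 1 gene for RSC against unlabelled cells without the block or without the filter on low counts, and for LEC against RSC 4 without the block, 12 without the filter and 1 without projection mouse 3; for the 3 comparisons DESeq2 called 54, 356 and 426. Single mice left out gave 0 to 0, 0 to 0 and 0 to 1. The number of shell-like cells was 180 of 478 in unlabelled cells and 378 to 441 under the other alternatives. The LEC minus RSC share was 55.7 percentage points on plate 12, chosen after seeing the data, and 67.8 to 75.1 without single mice. The endogenous to ERCC difference was -0.20 within plates, also chosen after seeing the data, and -0.31 to -0.24 without single mice.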
